A study of Cavia porcellus with 13 samples.

Results

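Kallikreins are secreted serine proteases that, in human and mouse epidermis, cut the adhesion proteins holding cornified cells together, so that the outermost cells can be shed. Their activity is held in check by secreted inhibitors of the Kazal type, encoded by SPINK genes, and by whey acidic protein inhibitors such as SLPI. In human skin, loss of the inhibitor encoded by SPINK5 leaves the barrier open and inflamed, which is one reason why the balance of protease and inhibitor is followed in irritated skin. The genes described here are those of the deposited table whose symbol was KLK4, KLK5, KLK7, KLK8, KLK10, KLK11, KLK13, SPINK5, SPINK7 or SLPI. Of these 10 symbols, 8 had a row among the 26855 genes of the table, 5 kallikreins (KLK4, KLK7, KLK8, KLK10, KLK13) and 3 inhibitors (SPINK5, SPINK7, SLPI). In the table KLK4 is ENSCPOG00000040233, KLK7 ENSCPOG00000040646, KLK8 ENSCPOG00000001102, KLK10 ENSCPOG00000022082 and KLK13 ENSCPOG00000011537, while SPINK5 is ENSCPOG00000014264, SPINK7 ENSCPOG00000027129 and SLPI ENSCPOG00000040357. KLK5 and KLK11 had no row under those symbols and were not analysed here. The list was drawn up after bitten skin had been set against naive skin in these same libraries, a comparison in which KLK13 had stood out, so every difference from naive skin below is a description of the 8 genes without a test.

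The study profiled RNA of guinea pig skin at a tick bite to ask how earlier exposure alters the response. Each of the 13 libraries came from a skin biopsy labelled day 4. In one experiment (library prefix CK1, 8 libraries) 3 libraries of bitten skin were labelled saliva immune and 3 as a first exposure, with naive replicates 1 and 2 from skin without a bite. In the other (prefix EF19-5, 5 libraries) 2 libraries of bitten skin were labelled as 3 tick bites and 2 as 2 tick bites, with naive replicate 3. The labels give neither the animals' strain, sex or age nor the way of saliva immunization, and they do not explain the prefixes, which were taken as 2 experiments. Whether each library was a separate animal is not stated either, and the p-values below therefore reflect library-to-library spread, which may be technical.

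Levels are given in TPM, a measure of abundance adjusted for gene length and library size, and the sequencing depth behind them is unknown. In whole biopsies, fewer cells of a type and less RNA per cell cannot be told apart. The biopsies differed in make-up. The basal keratin KRT14 was high in every library, between 7503 and 14039 TPM in bitten and between 4287 and 8013 TPM in naive skin. Skeletal muscle genes summed to between 4865 and 77353 TPM in bitten libraries and to 76039, 133155 and 19322 TPM in naive replicates 1, 2 and 3. Naive replicate 2 held the most muscle and the lowest sums of basal and suprabasal keratinocyte genes (6543 and 4578 TPM), and differences of the kallikreins and SPINK5 that moved by over 1.5 times without it are given both ways.

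KLK7, KLK10 and SPINK5 were the abundant members, above the other 5 genes in each of the 13 libraries. KLK7, a chymotrypsin-like enzyme that cleaves corneodesmosin in human skin, ranged from 209.9 to 2273.5 TPM. SPINK5, which encodes the inhibitor LEKTI, ranged from 295.0 to 1013.4 TPM, and KLK10, a kallikrein of stratified epithelia, from 261.0 to 938.6 TPM. KLK7 lay above SPINK5 in 12 of 13 libraries and above KLK10 in 10 of 13. KLK8, a trypsin-like kallikrein also called neuropsin, ranged from 9.95 to 121 TPM. KLK13, a trypsin-like kallikrein of squamous epithelia, ranged from 5.45 to 124 TPM and exceeded KLK8 in 4 of 13 libraries. The remaining 3 genes were scarcer, SLPI with at most 18.0 TPM, SPINK7 with at most 52.3 TPM and KLK4, best known for enamel maturation in human and mouse teeth, with at most 4.92 TPM.

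**Figure D1:**
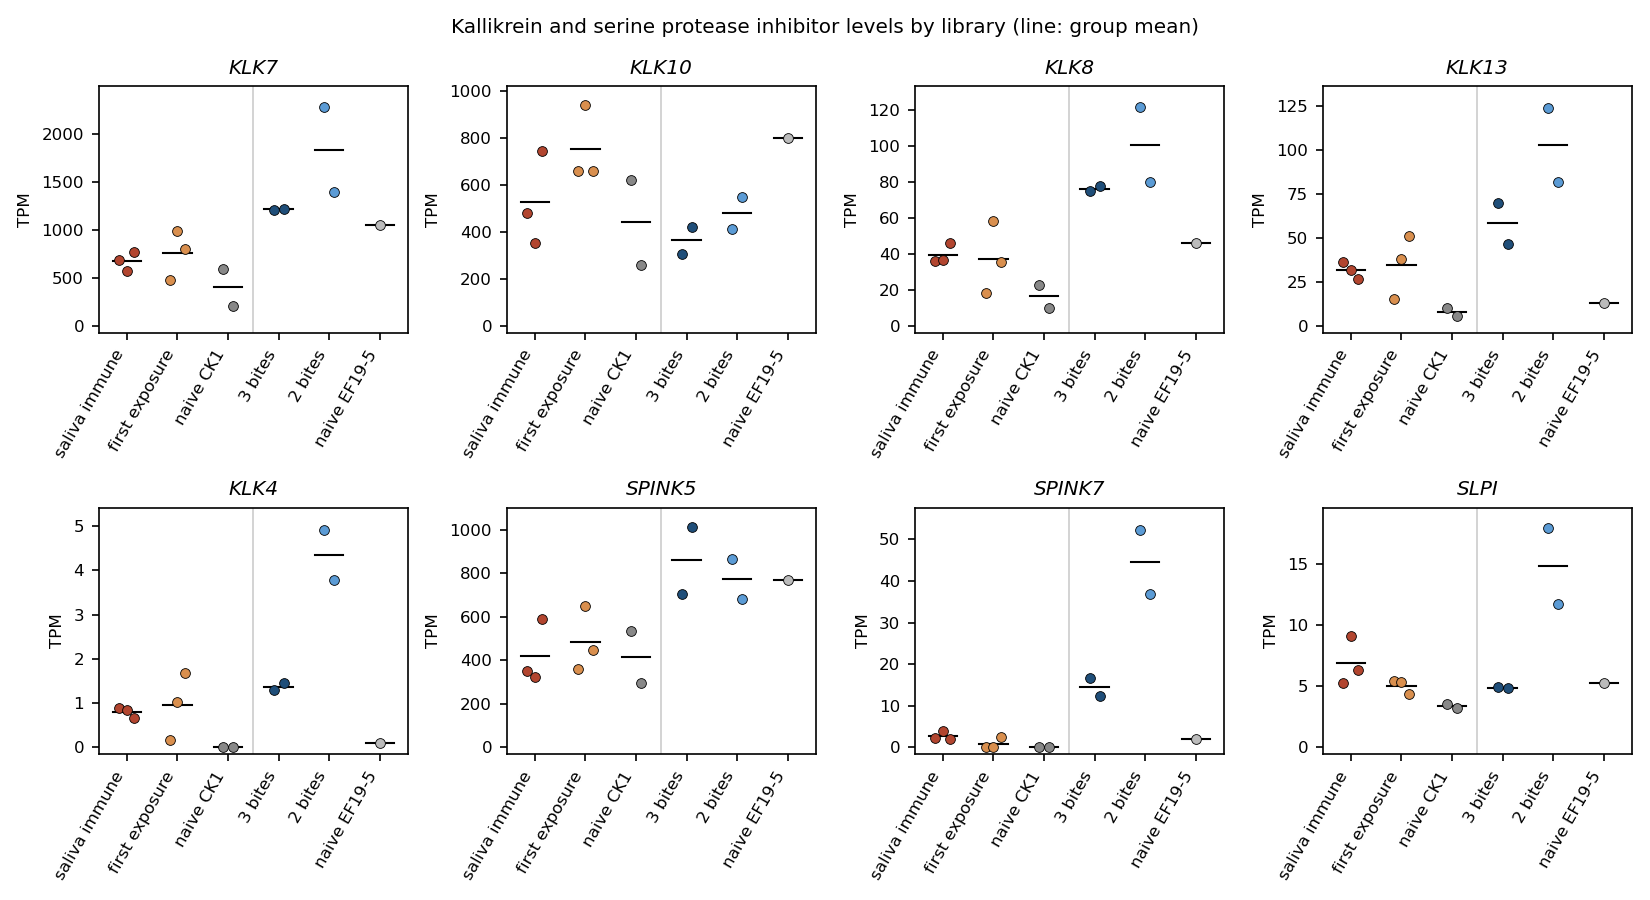
TPM of the 8 genes in each of the 13 libraries (points) with group means (lines), CK1 groups to the left and EF19-5 groups to the right of the grey line in each panel. KLK13 and KLK4 lay above the naive libraries of their own experiment in every bitten library, and SPINK7 reached over 10 TPM in the 2 bites and 3 bites libraries alone.

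KLK13 was the kallikrein with the clearest separation. Saliva immune libraries held 36.3, 31.9 and 26.9 TPM of KLK13 and first exposure libraries 15.2, 38.2 and 51.2 TPM, against 10.3 and 5.45 TPM in the naive skin of CK1. The 3 bites libraries held 69.9 and 46.7 TPM and the 2 bites libraries 124 and 81.7 TPM, against 12.8 TPM in the naive library of EF19-5. Every bitten library thus lay above every naive library of its experiment, first exposure replicate 1 by the smallest margin. In units of log2(TPM + 1), where the added 1 shrinks differences of scarce genes, the difference from naive skin was 1.93 (SE 0.45) in saliva immune, 1.91 (SE 0.45) in first exposure, 2.07 (SE 0.61) in 3 bites and 2.88 (SE 0.61) in 2 bites skin. Without naive replicate 2 the CK1 differences were 1.53 and 1.51.

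KLK4 showed the same ordering at a much lower level. Saliva immune libraries held 0.884, 0.850 and 0.675 TPM and first exposure libraries 0.170, 1.02 and 1.67 TPM, while KLK4 was listed at 0 in both naive libraries of CK1. The 3 bites libraries held 1.28 and 1.46 TPM and the 2 bites libraries 4.92 and 3.78 TPM, against 0.1002 TPM in naive replicate 3. No naive library reached 1 TPM, so KLK4 entered the fits (at least 1 TPM in at least 2 libraries) through bitten skin alone, and for SPINK7 this was so but for 1 naive library. All 8 genes passed this minimum.

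KLK7 and KLK8 lay above naive skin in every bitten library of EF19-5, where there is 1 naive library, and overlapped with naive skin in CK1. KLK8 stood at 35.9, 36.6 and 45.7 TPM in saliva immune and 18.3, 58.2 and 35.5 TPM in first exposure skin, against 22.7 and 9.95 TPM in CK1 naive skin. It stood at 74.9 and 77.4 TPM in 3 bites and 121 and 80.0 TPM in 2 bites skin, against 46.2 TPM in the naive library. Only first exposure replicate 1 fell within the naive range. For KLK7, saliva immune libraries held 688, 575 and 771 TPM and first exposure libraries 479, 987 and 804 TPM, against 590 and 209.9 TPM in CK1 naive skin, so that 1 library in each bitten group lay within the naive range. The 3 bites libraries held 1208 and 1220.3 TPM and the 2 bites libraries 2273.5 and 1391 TPM, against 1052 TPM in naive replicate 3. The KLK7 difference from CK1 naive skin rested on naive replicate 2. It was 0.93 in saliva immune and 1.04 in first exposure skin (SE 0.43 each), and 0.19 and 0.30 without that library (1.68 and 1.78 without naive replicate 1). For KLK8 the differences of 1.32 and 1.11 (SE 0.44 each) became 0.76 and 0.55. In EF19-5 the KLK7 difference was 0.21 in 3 bites and 0.76 in 2 bites skin (SE 0.57 each), and that of KLK8 0.71 and 1.08 (SE 0.59 each).

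KLK10 departed from KLK4, KLK7, KLK8 and KLK13. It stood at 482, 354 and 743 TPM in saliva immune and 660.2, 939 and 659 TPM in first exposure skin, against 621 and 261 TPM in CK1 naive skin. In EF19-5 it stood at 307 and 422 TPM in 3 bites and 414 and 547 TPM in 2 bites skin, against 799 TPM in the naive library. All 3 first exposure libraries lay above their naive skin, and all 4 bitten libraries of EF19-5 lay below theirs. Differences were 0.32 in saliva immune and 0.88 in first exposure (SE 0.40 each), -1.15 in 3 bites and -0.75 in 2 bites skin (SE 0.53 each). Without naive replicate 2 those of CK1 were -0.31 and 0.26, and without naive replicate 1 they were 0.94 and 1.5. A contrast between experiments, added after the values were seen, took the mean bitten difference in EF19-5 minus that in CK1. It was -1.55 (SE 0.60) for KLK10, 1.919 (SE 0.741) for SPINK7 and between -0.505 (KLK7) and 0.824 (KLK4) for the other members. Being built from differences from naive skin, it is given as a description without a test. EF19-5 has 1 naive library, so a difference of that library and a difference of the bitten skin cannot be told apart.

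Of the inhibitors, SPINK5 did not separate bitten from naive skin. It stood at 351, 323 and 589 TPM in saliva immune and 361, 649 and 447 TPM in first exposure skin, against 536 and 295.0 TPM in CK1 naive skin. In EF19-5 it stood at 703 and 1013.4 TPM in 3 bites and 867 and 682 TPM in 2 bites skin, against 769 TPM in naive skin. The ranges overlapped in every group, and the largest difference from naive skin in the main fit was 0.24 (first exposure, SE 0.36). The CK1 differences depended on which naive library was kept. In saliva immune skin the difference was 0.03 with both, -0.40 without naive replicate 2 and 0.46 without naive replicate 1. In first exposure skin it was -0.19 without naive replicate 2 and 0.67 without naive replicate 1.

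SPINK7, a Kazal inhibitor known from human oesophageal epithelium, was scarce in CK1 and higher in EF19-5. It was listed at 0 in both CK1 naive libraries and in first exposure replicates 1 and 2, stood at 2.40 TPM in first exposure replicate 3 and at 2.25, 3.86 and 1.95 TPM in saliva immune skin. The 3 bites libraries held 16.7 and 12.4 TPM and the 2 bites libraries 52.3 and 36.8 TPM, against 1.99 TPM in naive replicate 3. Within EF19-5 the 3 groups did not overlap, with mean levels 7.31 times (3 bites) and 22.4 times (2 bites) that of the single naive library. SLPI, which inhibits neutrophil elastase and cathepsin G, stood at 5.30, 9.16 and 6.32 TPM in saliva immune and 5.41, 5.34 and 4.33 TPM in first exposure skin, against 3.53 and 3.24 TPM in CK1 naive skin. It stood at 4.98 and 4.82 TPM in 3 bites and 18.0 and 11.8 TPM in 2 bites skin, against 5.28 TPM in naive skin. SLPI was thus above naive skin in all 6 bitten libraries of CK1 and in the 2 bites libraries, while both 3 bites libraries lay just under their naive library.

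**Figure D2:**
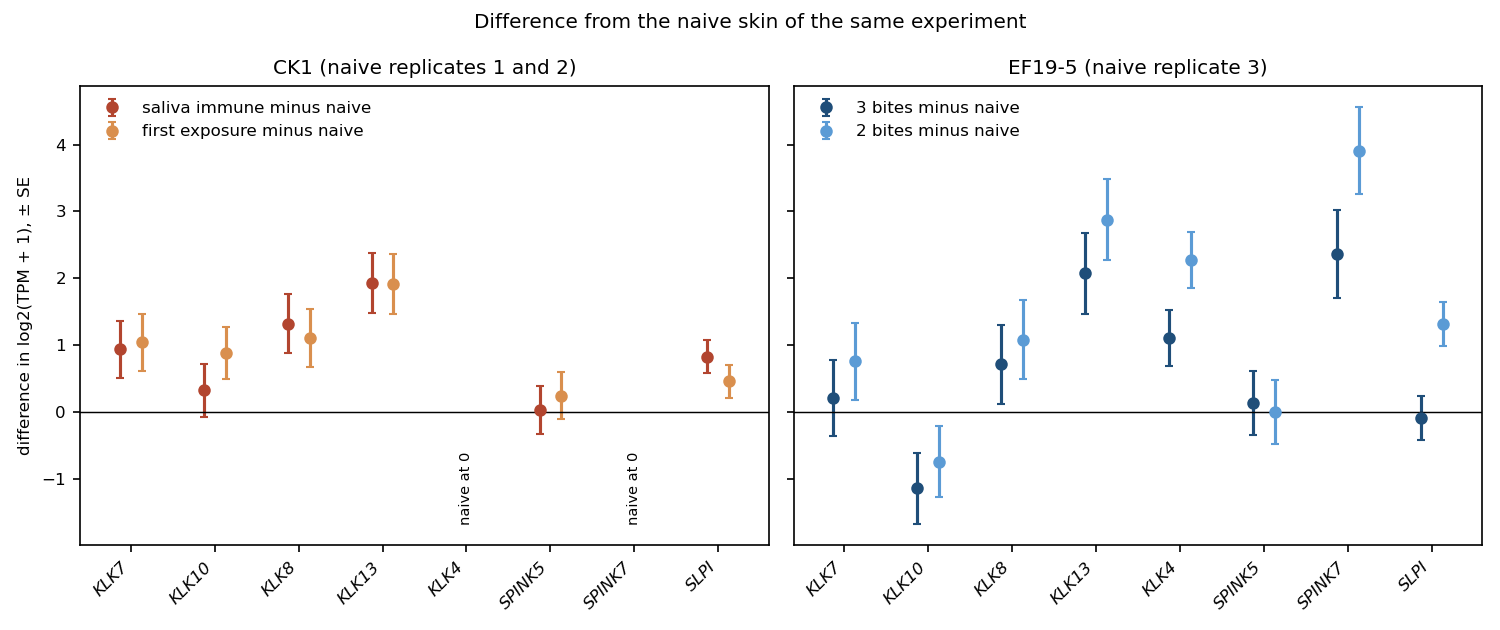
Difference in log2(TPM + 1) between each bitten group and the naive skin of its own experiment, with SE from limma fits over all genes; KLK4 and SPINK7 are left out in CK1, where both naive libraries were listed at 0. KLK13 differed by 1.91 to 2.88 in all 4 groups, SPINK5 by at most 0.24 with all naive libraries in, and KLK10 was negative in EF19-5.

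Every bitten library lay above naive skin for 3 of the 8 genes within CK1 (KLK4, KLK13, SLPI), as it did for 10.6% of all 14979 genes, and for 5 of 8 within EF19-5 (KLK4, KLK7, KLK8, KLK13, SPINK7), against 16.9% of all genes. KLK10 was below naive skin in every bitten library of EF19-5, as were 15.3% of all genes. KLK4 and KLK13 were above naive skin in both experiments, as did 3.09% of all genes. The bitten groups of an experiment share its naive libraries. Since the list was chosen from this comparison, nothing is read from these counts.

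Ratios between 2 genes of the same library are unaffected by dilution with tissue that lacks both, though not by which epithelial cells a biopsy held. KLK13 relative to SPINK5 separated all bitten from all naive libraries, at 0.042 to 0.143 in the 10 bitten ones against 0.017 to 0.019 in the 3 naive ones. KLK13 had already stood out between bitten and naive skin, and SPINK5 hardly differed there. That ratio therefore restates the KLK13 difference and adds no support to it. How many other genes separate the libraries relative to SPINK5 was not counted. KLK8 relative to SPINK5 lay between 0.051 and 0.140 in bitten and between 0.034 and 0.060 in naive libraries. KLK7 relative to SPINK5 lay between 1.204 and 2.62 in bitten and 0.712 and 1.37 in naive libraries. In CK1 all bitten ratios of KLK7 to SPINK5 were above the naive ones, whereas in EF19-5 3 bites replicate 2 (1.204) lay below the naive library (1.37).

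The make-up of the kallikrein pool differed between the experiments. KLK7 supplied 66.1% to 77.4% of the summed kallikrein TPM in the bitten libraries of EF19-5, against 55.1% in their naive library, and 40.8% to 57.6% in the bitten libraries of CK1, against 47.4% and 43.2% in naive skin. KLK10 supplied 14.1% to 26.0% in bitten EF19-5 skin against 41.8% in naive skin, and 35.5% to 56.3% in bitten CK1 skin against 49.9% and 53.7%. The ratio of KLK7 to KLK10 was accordingly 2.54 to 5.49 in bitten EF19-5 libraries, and at most 1.62 in all other libraries. KLK13 made up 1.29% to 4.22% of the pool in bitten and 0.673% to 1.12% in naive libraries, with no overlap. This share too restates the separation for which KLK13 had stood out.

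**Figure D3:**
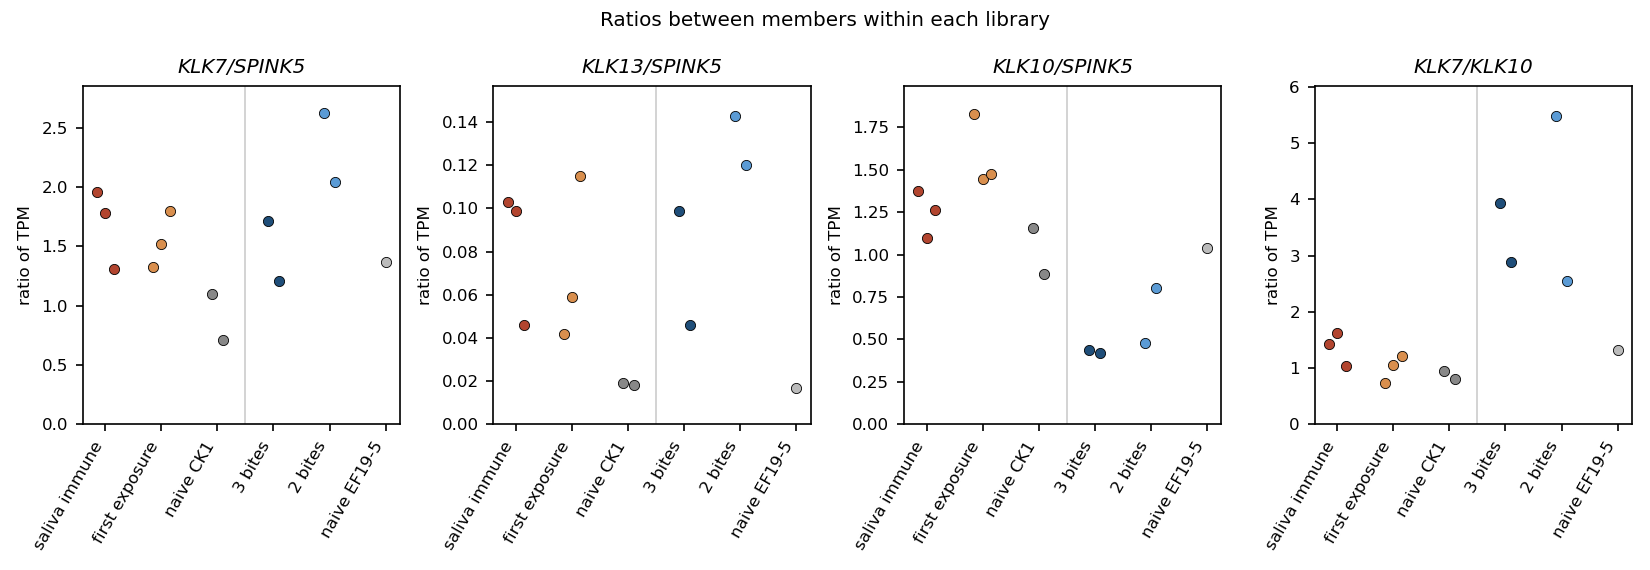
Ratios of TPM between pairs of the genes within each library (points), by group. The KLK13 to SPINK5 ratio was 0.042 or more in every bitten library and 0.019 or less in every naive one, and the KLK7 to KLK10 ratio exceeded 2.5 in the bitten libraries of EF19-5 alone.

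Skin bitten after 3 bites was then compared with skin after 2 bites, a contrast that uses no naive library. Of the 8 genes, 6 were lower in both 3 bites libraries than in both 2 bites libraries (KLK4, KLK7, KLK8, KLK13, SPINK7 and SLPI), a pattern that 11.5% of all genes showed in this direction and 35.6% in the opposite one. The differences were largest for SPINK7, whose mean was 14.5 TPM in 3 bites and 44.6 TPM in 2 bites skin (log2 difference -1.54, SE 0.54), and for SLPI, with means of 4.90 TPM in 3 bites and 14.9 TPM in 2 bites skin (-1.40, SE 0.27). KLK4 differed by -1.16 (SE 0.34), KLK13 by -0.81 (SE 0.49) and KLK7 by -0.55 (SE 0.47). The KLK7 difference was -0.20 without 2 bites replicate 1, the library with the highest KLK7, and -0.90 without 2 bites replicate 2. That of KLK8 was -0.37 with all libraries and -0.07 without 2 bites replicate 1. For KLK13 the difference lay between -1.10 and -0.51 with 1 library left out. SPINK5 did not follow, with means of 858 TPM in 3 bites and 775 TPM in 2 bites skin (0.13, SE 0.39), a sign that turned with median-of-ratios scaling (-0.06). KLK10 lay at 365 TPM in 3 bites and 480.4 TPM in 2 bites skin, with overlapping libraries.

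None of these differences passed over all genes. In limma with Benjamini-Hochberg adjustment, 0.0% of 14979 genes were called between 3 bites and 2 bites, where 1615 had an unadjusted p under 0.05. The adjusted p was 0.331 for SLPI, 0.354 for KLK4 and 0.384 for SPINK7, and between 0.568 and 0.921 for the other 5. The unadjusted p was 0.000371 for SLPI, 0.00685 for KLK4 and 0.0161 for SPINK7. The median difference of the 8 genes was -0.68, and that of all genes 0.13. The 8 genes were chosen with earlier results of these same libraries known, the 3 bites and 2 bites libraries among them. The unadjusted p-values, the count of lower genes and the median are therefore no independent support for a difference. With 2 libraries in each group an exact two-sided permutation test of a single gene cannot go below p = 0.333.

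Saliva immune skin and first exposure skin overlapped for all 8 genes, where 5.41% of all genes were higher in every saliva immune library and 1.35% lower. The largest difference was that of SPINK7 (1.26, SE 0.44, unadjusted p = 0.0163 and adjusted p = 1 in limma with Benjamini-Hochberg adjustment), which rests on values between 0 and 3.86 TPM. KLK10 differed by -0.56 (SE 0.35) and SLPI by 0.37 (SE 0.22), and KLK13 by 0.02 (SE 0.40), an error wide enough to leave room for a sizeable difference either way. The fit called 0.0% of 14979 genes in this comparison, with 351 at an unadjusted p under 0.05. The median was -0.01 for the 8 genes and 0.02 for all genes. An exact two-sided permutation test of 3 against 3 libraries cannot go below p = 0.1.

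**Figure D4:**
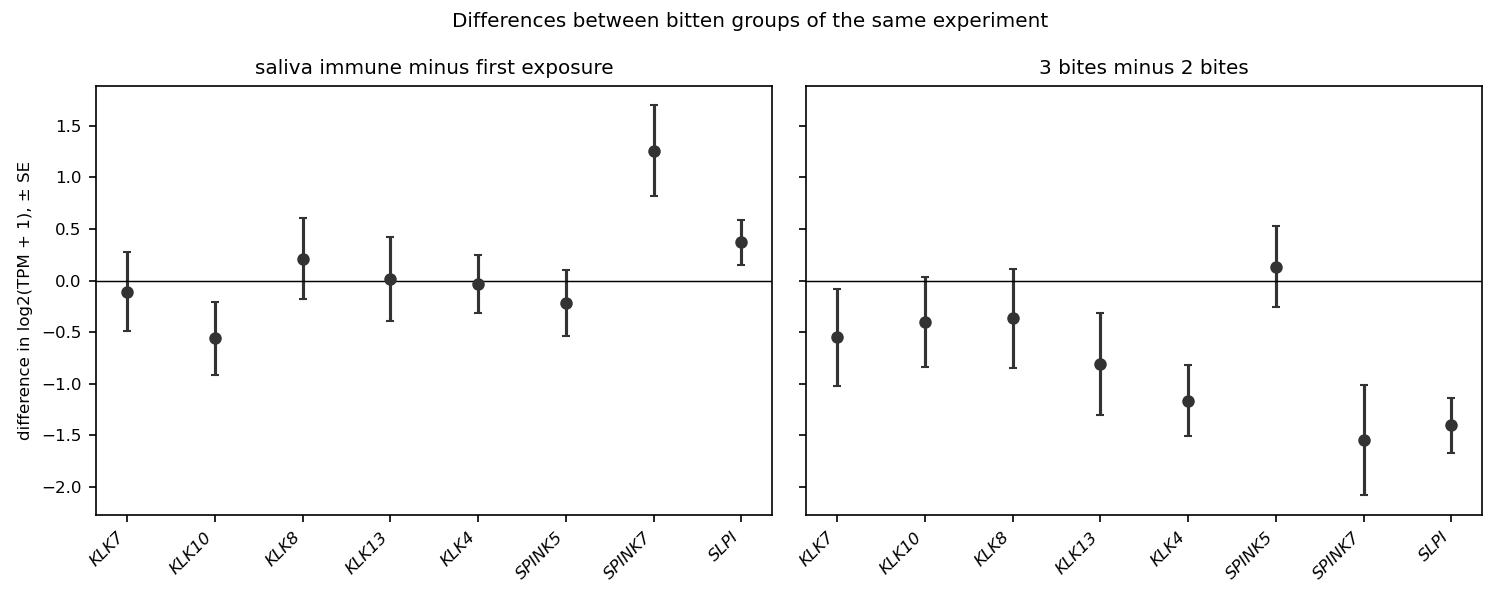
Differences in log2(TPM + 1) with SE between saliva immune and first exposure skin (left) and between 3 bites and 2 bites skin (right). In the right panel 7 of 8 genes lie below 0, SPINK7 (-1.54) and SLPI (-1.40) the farthest, while SPINK5 lies at 0.13.

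The 8 genes did not vary as one block. After each experiment's mean was taken off, Pearson's r of log2(TPM + 1) across the 13 libraries was 0.934 between KLK7 and KLK8, 0.919 between KLK4 and KLK13 and 0.871 between KLK4 and SPINK7. KLK10 and KLK13 had an r of 0.06, KLK10 and SPINK7 one of -0.327 and SPINK5 and SPINK7 one of -0.121. These values describe libraries that share group, experiment and tissue make-up, so they carry no test.

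The genes most like each member, out of 12088 others with a symbol, differed between most members. KLK7 and KLK8 shared SH3BGRL3 and ALDH3B2, and KLK4 and KLK13 shared PGLYRP3. Closest to KLK7 was KRT14, the keratin of basal keratinocytes (r = 0.971), followed by ALDH3B2, PFKP, ACTN1 and SH3BGRL3. Closest to KLK8 was SDR9C7 (r = 0.961), a dehydrogenase that human skin needs for its lipid barrier, followed by SH3BGRL3, Kcnk7, SDCBP2 and ALDH3B2. For KLK13 the nearest were STEAP4, a metalloreductase (r = 0.962), CDHR1, PGLYRP3, CARHSP1 and RBP2. PGLYRP3, a secreted protein that binds bacterial peptidoglycan, averaged 18.6 TPM in saliva immune, 17.6 TPM in first exposure and 7.02 TPM in CK1 naive skin, and 38.5 TPM in 3 bites, 62.0 TPM in 2 bites and 15.4 TPM in EF19-5 naive skin.

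KLK4 was closest to UPP1 (r = 0.93), a uridine phosphorylase, and then to TRPV5, KLK13, SLC28A3 and PGLYRP3. KLK10 had different neighbours, the calcium channel TRPV6 (r = 0.965), the lipid carrier APOE, the peptide transporter SLC15A1, KIAA2013 and the proton pump gene Atp12a. SPINK5 was nearest to GPRIN2 (r = 0.974), ARHGEF5, WDR45B, the glycolipid transfer protein gene GLTP, and DESI1. SPINK7 was nearest to RIPK3, a kinase of necroptosis (r = 0.917), which averaged 20.1 TPM in 3 bites, 48.9 TPM in 2 bites and 3.89 TPM in EF19-5 naive skin, and then to PLEKHG6, LIMD2, BAK1 and DERL3. SLPI was nearest to IRAK1, a kinase of interleukin 1 and Toll-like receptor signalling (r = 0.927), then to the complement receptor gene C5AR2, CAVIN3, GMFG and the inflammasome adaptor gene PYCARD.

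Markers of the cells that could carry these transcripts were summed in each library, and no keratinocyte marker passed in any comparison. The 5 suprabasal keratinocyte genes in the table summed to between 7281 and 40965 TPM in bitten and between 4578 and 17120.0 TPM in naive libraries. The sums in EF19-5 were 29379 and 35953 TPM in 3 bites and 40965 and 24782 TPM in 2 bites skin, against 17120.0 TPM in naive skin. Basal keratinocyte genes (10 in the table) summed to 10114 to 18281 TPM in bitten and 6543 to 12713 TPM in naive libraries. When every gene was set relative to the mean log2 level of the basal list, the KLK13 difference from naive skin was 1.65 in saliva immune, 1.31 in first exposure, 1.34 in 3 bites and 2.62 in 2 bites skin. On that scale the KLK4 difference was 0.38 (SE 0.65) in 3 bites skin, against 1.11 in the main fit, and 2.02 (SE 0.65) in 2 bites skin. The 3 bites difference was -0.52 for KLK7, -0.02 for KLK8 and -0.82 for SLPI. For SPINK5 it was -0.25 in saliva immune, -0.36 in first exposure, -0.60 in 3 bites and -0.25 in 2 bites skin. For KLK10 it was 0.04 in saliva immune, 0.27 in first exposure, -1.88 in 3 bites and -1.0 in 2 bites skin. The SLPI difference was -0.15 in first exposure skin, against 0.45 in the main fit, and 0.55 in saliva immune skin.

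Of the neutrophil genes, with which SLPI is often discussed, 0 of 7 tested passed between bitten and naive skin. The 10 genes of that list in the table summed to 193 to 2252 TPM in bitten and 83.6 to 170 TPM in naive libraries, almost all of it S100A9, a calprotectin subunit that keratinocytes also make. MPO was listed at 0 in all 13 libraries. Between 3 bites and 2 bites the 7 tested genes had a median difference of -0.58, beside 0.13 for all genes, and none passed. In EF19-5 the summed level was 193 and 633 TPM in 3 bites and 528 and 552 TPM in 2 bites skin, against 170 TPM in naive skin. The summed levels of the 3 bites and 2 bites libraries thus overlapped. The part of keratinocytes or neutrophils in the differences of the 8 genes was not tested.

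**Figure D5:**
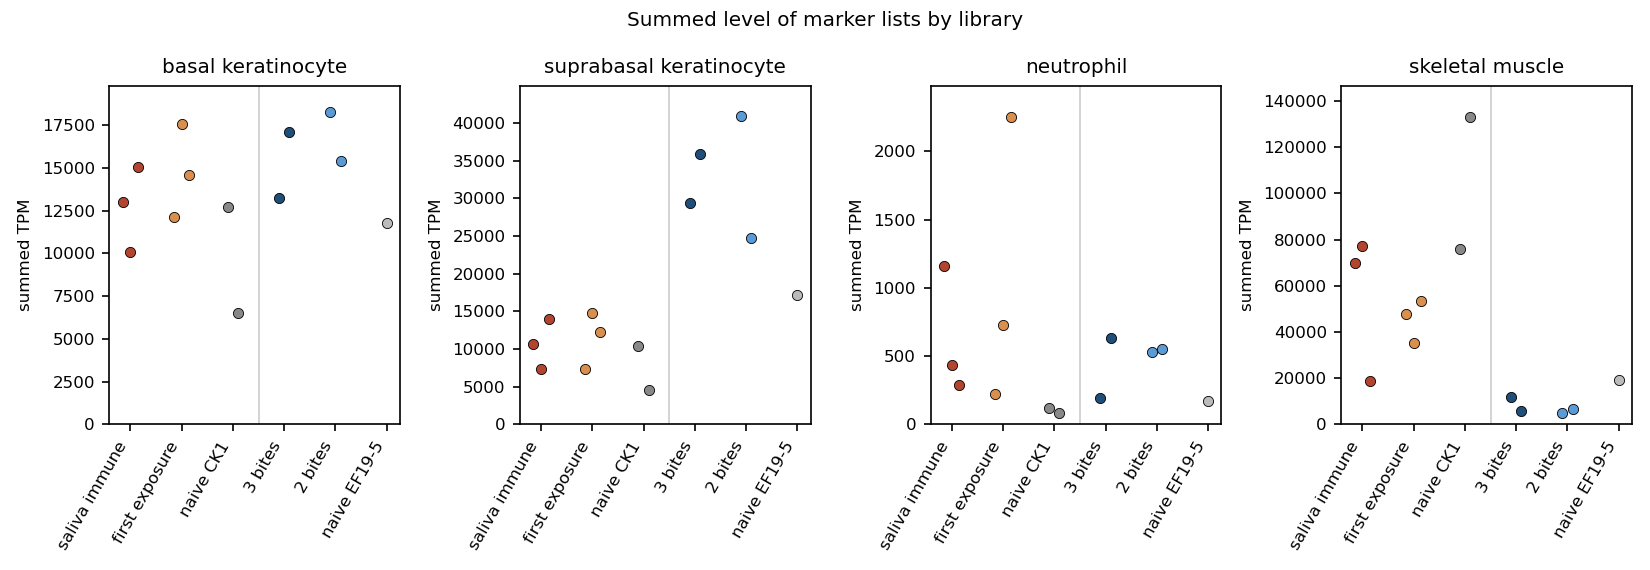
Summed TPM of the basal keratinocyte, suprabasal keratinocyte, neutrophil and skeletal muscle lists in each library (points), by group. Naive replicate 2 holds the lowest keratinocyte sums (6543 and 4578 TPM) and the highest muscle sum (133155 TPM), and suprabasal sums are higher in EF19-5 than in CK1.

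The rest of the protease network was followed with lists of related genes, tested with limma over all genes and Benjamini-Hochberg adjustment. Between bitten and naive skin, where 0.0401% of all genes were called, 0 of 2 other kallikreins, 0 of 23 other epidermal proteases, 0 of 20 other inhibitors and 0 of 10 kallikrein substrates and receptors passed in either direction. At an unadjusted p under 0.05, 2366 of all genes stood in that comparison. The median log2 difference was 0.55 for the proteases, 0.25 for the inhibitors and 0.50 for the substrates and receptors, beside 0.10 for all genes. For the basal and suprabasal keratinocyte lists it was 0.47 and 0.66, and for the hair follicle list -0.20. Medians of this size were thus not particular to the protease lists.

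Among proteases the smallest p belonged to PRSS27, a membrane serine protease of squamous epithelia, with a median of 45.9 TPM (18.4 to 59.3) in bitten and 15.8 TPM (8.24 to 32.8) in naive libraries (difference 1.23, SE 0.27, adjusted p = 0.113). TMPRSS11A, a membrane-bound trypsin-like protease, had a median of 1.89 TPM (0.624 to 4.83) in bitten skin and was listed at 0, 0 and 0.725 TPM in naive skin (adjusted p = 0.128). FURIN, a proprotein convertase, had medians of 73.3 TPM in bitten and 46.3 TPM in naive skin (adjusted p = 0.195). The medians of list genes here and below pool both experiments, whereas the differences were fitted with an experiment term. Naive levels differed between the experiments, for PRSS27 with means of 12.0 TPM in CK1 and 32.8 TPM in EF19-5. Of the inhibitors, CSTB, a cystatin of cysteine proteases, had medians of 598 TPM in bitten and 448 TPM in naive skin (adjusted p = 0.202), WFDC3, of the same family as SLPI, 2.40 TPM in bitten and 1.03 TPM in naive skin (adjusted p = 0.204), and SERPINB8 31.5 TPM in bitten and 22.1 TPM in naive skin (adjusted p = 0.225).

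Of the substrates, the interleukin gene Il18 had medians of 22.2 TPM in bitten and 8.22 TPM in naive skin (difference 1.22, SE 0.27, adjusted p = 0.113). The desmosomal cadherins DSG1 and DSC1, which kallikreins cut in human epidermis, had medians of 530 and 394 TPM in bitten and 378 and 298 TPM in naive skin (adjusted p = 0.297 and 0.377). KLK14 stood at a median of 0.773 TPM in bitten and 0.531 TPM in naive skin, and KLK15 at 7.45 TPM in bitten and 11.2 TPM in naive skin, with differences of 0.21 (SE 0.33) and -0.20 (SE 0.49).

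Of the genes in the 9 marker lists, 1 passed, PVALB of the muscle list, with medians of 384 TPM in bitten and 1472 TPM in naive skin (difference -1.97, adjusted p = 0.0413). No list gene passed when first exposure replicate 2 or 3, any saliva immune library, naive replicate 1 or naive replicate 2 was left out, the smallest adjusted p being 0.318 without naive replicate 2. Of the 14 entries of the activated keratinocyte list, STEAP4 was the 1 gene in the table. Its medians were 9.95 TPM in bitten and 4.10 TPM in naive skin (difference 1.26, SE 0.24, adjusted p = 0.0729). Keratinocyte genes with the smallest p were KRT14 (difference 0.57), LAMB3 (0.66) and ITGA6 (0.51) among basal and CNFN (0.62), KRTDAP (0.66) and KRT1 (0.70) among suprabasal genes, none of which passed (adjusted p = 0.224 to 0.306). In the neutrophil list they were S100A9 (2.16), ITGAM (0.72) and Cxcr2 (0.90), with adjusted p from 0.149 to 0.282. In the other marker lists they were MSX2 (-0.47), KRT85 (-0.55) and KRT35 (-0.43) for hair follicle, SOAT1 (0.78), FA2H (0.99) and AWAT1 (0.92) for sebaceous gland, AQP5 (1.06), KRT19 (-0.32) and KRT7 (0.07) for glandular epithelium, and PPARG (0.96), ADIPOQ (1.68) and PLIN1 (1.39) for adipocytes. None of these 12 passed. Without naive replicate 2, 18 of the 36 genes named from the lists moved by over 1.5 times, 15 of them towards 0, among them KRT14 (0.31), CNFN (0.30), DSG1 (0.32), DSC1 (0.21), CSTB (0.27), ADIPOQ (0.94) and PLIN1 (0.67). ACTN3 (-2.31) and TNNT3 (-1.96) of the muscle list did not pass either (adjusted p = 0.0729 and 0.0789).

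No gene of any list passed against naive skin in first exposure (0.0334% of all genes called), saliva immune (0.00668%), 2 bites (0.0134%) or 3 bites skin (0.00668%), or between bitten groups. Between 3 bites and 2 bites, the proteases had a median of -0.15, the inhibitors -0.09 and the substrates and receptors -0.10, against -0.68 for the 8 genes and 0.13 for all genes. Between saliva immune and first exposure skin the medians were -0.09, -0.23 and -0.34.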

How the data were processed

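The values were deposited by the authors as TPM, with a column for each of the 13 libraries that sums to 1000000. The submitters' processing notes list Trimmomatic, StringTie and DESeq, with neither version nor role. The aligner, genome build and annotation were not given in the sources used here. Kallikreins are a family of related genes, and how reads shared between them were counted is not stated, so small differences between members are uncertain. The depth per library is unknown. Groups came from the immunization label and experiments from the title prefix.

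From the TPM, log2(TPM + 1) was fitted with limma 3.58.1 in R 4.3.3 on the 14979 genes that reached 1 TPM in 2 or more libraries, with an intensity trend, Benjamini-Hochberg adjustment over all of them and a two-sided threshold of 0.05. Bitten against naive skin used a bitten and an experiment term. The other comparisons came from 1 model of the 5 groups and the experiment, so that 3 bites and 2 bites rest on 1 naive library, assumed to vary like the other groups. The fits were tested on simulated data with independent normal noise around 1 mean per gene. No differences in tissue make-up were simulated, so recovery in the real libraries may be lower. Changes were placed only in genes with a mean log2(TPM + 1) above 2, which leaves out genes as scarce as KLK4. A log2 difference of 1 was recovered for 77.6% of changed genes between bitten and naive skin. For saliva immune against first exposure skin it was 61.2%, and for 3 bites against 2 bites 28.4%. At a log2 difference of 2 these were 100%, 97% and 88.1%. A gene that did not pass may therefore still differ, above all between 3 bites and 2 bites. Figures and summaries used Python 3.11.15, pandas 2.3.3 and matplotlib 3.10.9.

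The members and gene lists were chosen with earlier results of these data known. Named genes are all members, the 3 genes of each other list with the smallest p in bitten against naive skin, every list gene called, and for each member the 5 genes with the highest Pearson r. Alternatives were another pseudocount (0.1), no minimum level, median-of-ratios scaling, each experiment alone, no experiment term, removal of muscle genes, levels relative to basal keratinocyte genes, and each library left out. No sequence is printed, since none was at hand.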

Additional observations from a re-analysis of the deposited data

Results flagged for a closer look

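KLK7 in 2 bites replicate 1, at 2273.5 TPM, stood apart from the other 9 bitten libraries, the gap to the next library being 0.492 of the whole range, beyond Dixon's limit for 10 libraries. The 10 libraries pool both experiments, 16 such gaps were examined over the 8 genes, and chance flags about 1 group in 20.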

How the results depend on the processing

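No paired analysis was possible because the labels number no replicates across groups. No alternative brought any of the 8 genes past the threshold between 3 bites and 2 bites (adjusted p from 0.19 to 0.999) or between saliva immune and first exposure skin (0.435 to 1). Median-of-ratios scaling moved the median of all genes between 3 bites and 2 bites to -0.031, against 0.135 on the deposited scale. Of the list genes, 1 passed between bitten and naive skin. That count was 2 in CK1 alone and 0 with no minimum level, with median-of-ratios scaling, in EF19-5 alone, with no experiment term, without muscle genes or relative to basal keratinocyte genes, and 0 to 3 with 1 library left out. The count was 1 instead of 0 for first exposure with median-of-ratios scaling, and 12 instead of 0 for 2 bites with no experiment term. Of the members' differences from naive skin, which carry no test, 24 of 670 values turned in sign, over 10 results, of KLK7, KLK8, KLK10, SPINK5 and SLPI, 8 of them relative to basal keratinocyte genes and 5 without naive replicate 2. Of the tested results, 27 values of 11 results turned, none of which had passed. The cause was not tested. Between saliva immune and first exposure skin, KLK4 became 0.15 with a pseudocount of 0.1, and relative to basal keratinocyte genes KLK4 became 0.29, KLK7 0.22 and SPINK5 0.11. With 1 library left out, KLK4 ranged from -0.37 to 0.23, KLK7 from -0.40 to 0.12, KLK8 from -0.21 to 0.60, KLK13 from -0.48 to 0.37 and SPINK5 from -0.48 to 0.02. Between 3 bites and 2 bites, SPINK5 became -0.06 with median-of-ratios scaling and -0.34 relative to basal keratinocyte genes, and ranged from -0.13 to 0.40 with 1 library left out. Between bitten and naive skin, KLK14 became -0.73 and PLIN1 -0.18 in EF19-5 alone, and KLK15 0.11 in CK1 alone. Relative to basal keratinocyte genes KLK14 became -0.25, FURIN -0.02 and KRT7 -0.39. With 1 library left out KLK14 ranged from -0.05 to 0.71, KLK15 from -0.75 to 0.11 and KRT7 from -0.08 to 0.19. The unknown depth sets no floor for the values listed at 0, and 1 naive library in EF19-5 limits every difference from naive skin there.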
